A study of Nicotiana benthamiana with 28 samples.

Results

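The 100 genes whose transcript levels varied least over the series were described, out of 59814 genes measured by RNA sequencing in 28 libraries of Nicotiana benthamiana seedlings. They were chosen by their measured values. A gene entered when its mean over all libraries was from 20 to under 500 TPM, a transcript abundance per gene length scaled to a total of 1000000 in each library, and when it was above 0 TPM in every library. Of the 9284 genes at this level, 26 were listed at 0 in some library, which left 9258 genes, called the level window here. Each library was then divided by a scaling factor, its median ratio to the geometric means of the genes above 0 in all libraries, and the 100 genes with the lowest standard deviation (SD) of log2 scaled TPM over the 28 libraries were taken. The steadiness of these genes in these libraries is therefore a description and not a test.

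Seedlings 12 days old received the XEG1 protein or a mock treatment for 3 h, with 2 libraries for each of 14 groups. The sample titles call the control EV and its treatment label calls it mock, and both were taken as the same control. Of the 7 genotypes, 4 were lines that carry an RXEG1syn construct with ΔCT behind the RXEG1 promoter in the rxeg1 knockout background, and so lack the native receptor gene. They are named pRXEG1:RXEG1synΔCT-1, pRXEG1:RXEG1synΔCT-2, pRXEG1:RXEG1synΔ90-95/Q786AK791AΔCT-1, with residues 90 to 95 deleted beside the exchanges Q786A and K791A, and pRXEG1:RXEG1synΔ90-95/Δ786-792ΔCT-1. No line analysed here carries RXEG1syn without ΔCT. The plots leave out the shared start pRXEG1:RXEG1syn of these names. The other genotypes were the rxeg1 knockout, the sobir1/sobir1-like knockout and wild type. The labels do not say whether the 2 libraries of a group came from separate plants or growth batches, or whether plants were pooled, so every error and p-value covers the spread between these libraries alone, which may be technical.

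The oomycete Phytophthora sojae, a pathogen of soybean, secretes XEG1, a hydrolase that acts on the cell wall. At the plant surface it is bound by RXEG1, a receptor-like protein, and SOBIR1 is a receptor kinase that signals with such receptors. A gene whose transcript stays level while others respond serves in plant biology as an internal reference, against which qPCR results and whole libraries are scaled. Widely used plant reference genes encode actin, elongation factors, ubiquitin enzymes or phosphatase subunits. The files pair no identifier with a gene name, so it was not examined which of these kinds the 100 genes hold, and genes are given by their Niben101 identifiers.

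Sequencing depth cannot be read from TPM and is unknown here. The number of genes at 1 TPM or more was 33443 to 37043 per library. Both XEG1 libraries of wild type stood apart from the other 26, with scaling factors of 0.687 and 0.686 against 0.883 to 1.151 elsewhere. Without gene names the knockouts could not be checked at the genes they target, nor the tissue at its markers. In whole seedlings, fewer cells of a type and less RNA per cell cannot be told apart, which holds for every level given here.

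As chosen, the SD of log2 scaled TPM was 0.065 to 0.10 among the 100 genes, with a median of 0.094, against a median of 0.30 in the level window. For a typical stable gene the highest library was 1.29 times the lowest, and for the least steady of them 1.41 times. The median gene of the level window spanned 2.22-fold. The threshold fell within a continuum. The last gene inside was Niben101Scf07741g04022, with a mean of 25.5 TPM and an SD of 0.1016, and the first outside was Niben101Scf01269g04014, with a mean of 76.7 TPM and an SD of 0.1017.

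**Figure D1:**
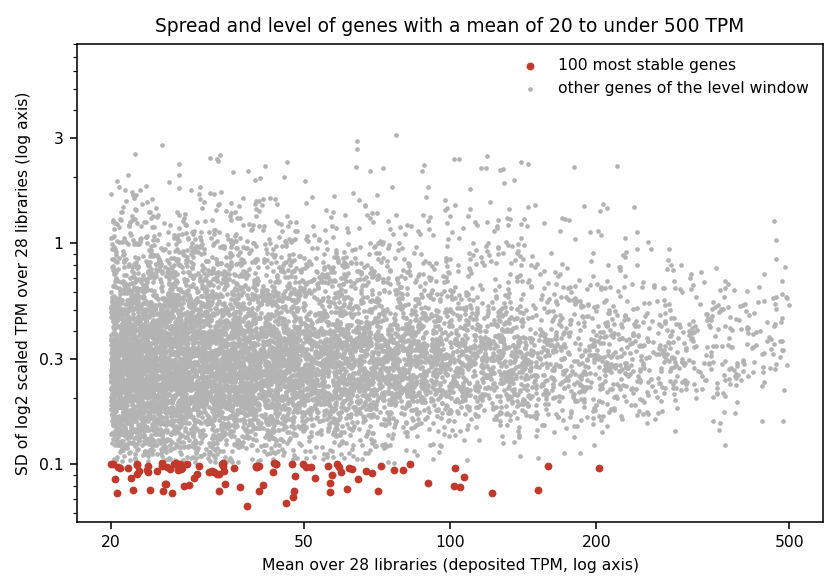
Each point is a gene of the level window, with its mean over 28 libraries in deposited TPM on the x axis and the SD of its log2 scaled TPM on the y axis (both log axes). The 100 most stable genes form the lower edge, from 0.065 to 0.10, mostly at means under 100 TPM.

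The stable genes were mostly of moderate level. Their mean ran from 20.04 to 203 TPM with a median of 35.1 TPM, against a median of 40.1 TPM in the level window. Of the 100, 37 lay from 20 to under 30 TPM, 33 from 30 to under 50 TPM, 22 from 50 to under 100 TPM, 7 from 100 to under 200 TPM and 1 from 200 to under 500 TPM. They made up 1.23% of the genes in the lowest of these bands and 0.191% of the 523 genes in the highest band, where the median SD was 0.34 against 0.28 in the lowest. Above the window, none of the 182 genes with a mean of 500 TPM or more was as steady as the last stable gene, and the lowest SD there was 0.15. Below it, 68 of 26499 genes with a mean of 1 to under 20 TPM and above 0 TPM in all libraries were as steady.

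Niben101Scf10162g02016 had the lowest spread, with an SD of 0.065 around a mean of 38.2 TPM. Its scaled level after XEG1 and after mock was 38.3 and 38.6 TPM against 40.2 and 35.5 TPM in pRXEG1:RXEG1synΔCT-1, and 37.0 and 36.7 TPM against 35.0 and 37.7 TPM in pRXEG1:RXEG1synΔCT-2. In pRXEG1:RXEG1synΔ90-95/Q786AK791AΔCT-1 it was 35.9 and 37.3 TPM after XEG1 and 38.6 and 36.6 TPM after mock. The XEG1 and mock libraries overlapped in each of these 3 lines.

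In pRXEG1:RXEG1synΔ90-95/Δ786-792ΔCT-1 the same gene stood at 37.1 and 38.6 TPM after XEG1 and at 39.3 and 38.4 TPM after mock. The rxeg1 knockout had 35.9 and 39.0 TPM after XEG1 and 37.4 and 38.4 TPM after mock, and the sobir1/sobir1-like knockout 36.7 and 38.8 TPM after XEG1 and 36.1 and 35.5 TPM after mock. Wild type had 39.2 and 42.9 TPM after XEG1 and 38.2 and 39.6 TPM after mock. Only in sobir1/sobir1-like did both XEG1 libraries lie above both mock libraries, and in the other 6 genotypes the groups overlapped. The highest library of all 28 was the second XEG1 library of wild type, and the lowest was a mock library of pRXEG1:RXEG1synΔCT-2.

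The next 3 genes behaved alike on the scaled values. Niben101Scf09223g00002 (SD 0.067) had 49.6 and 45.7 TPM after XEG1 and 43.6 and 46.7 TPM after mock in wild type, and between 41.8 and 49.0 TPM, with a median of 45.3 TPM, in the 24 libraries of the other genotypes. Niben101Scf06856g00007 (SD 0.071) had 47.8 and 48.2 TPM after XEG1 and 44.0 and 49.0 TPM after mock in wild type, and between 42.4 and 51.3 TPM, with a median of 47.0 TPM, elsewhere. In both genes the XEG1 and mock libraries of wild type overlapped. Niben101Scf02156g02008 (SD 0.074), the most abundant of the 4 with a mean of 122 TPM, had 117 and 116 TPM after XEG1 and again 117 and 116 TPM after mock in wild type. It ranged from 108 to 135 TPM, with a median of 120.3 TPM, in the other 24 libraries.

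**Figure D2:**
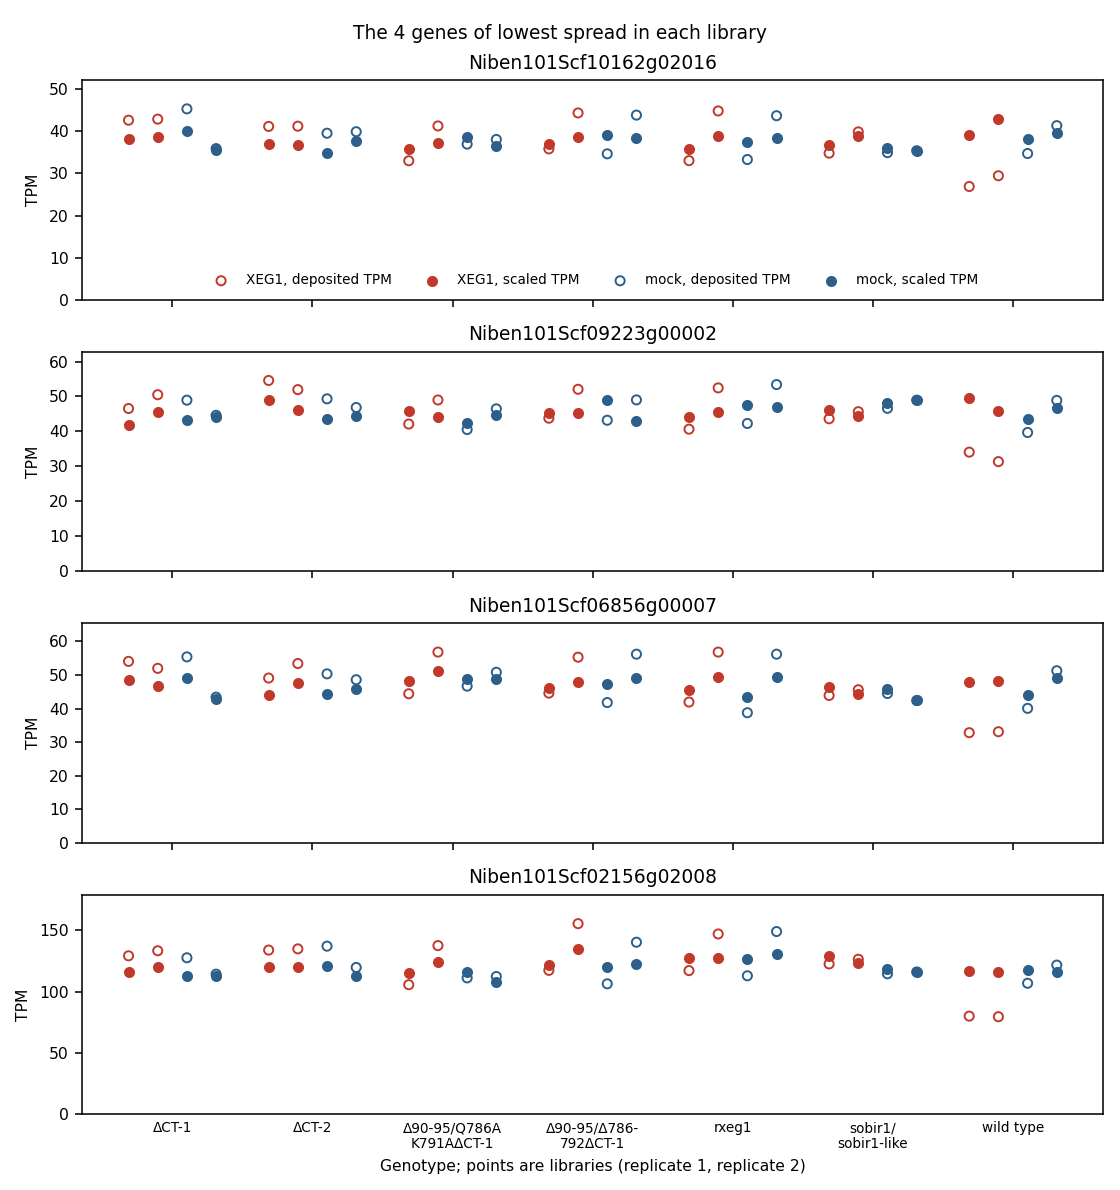
TPM of the 4 genes of lowest spread in each of the 28 libraries, XEG1 in red and mock in blue, with filled points for scaled TPM and open points for deposited TPM. The filled points lie level across genotypes, while the open points of both wild-type XEG1 libraries lie below all others.

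The extremes of level were Niben101Ctg14522g00003 and Niben101Scf00254g08009. Niben101Ctg14522g00003 had a mean of 203 TPM and an SD of 0.097, with scaled levels of 214 and 211 TPM after XEG1 and 193 and 223 TPM after mock in wild type, and 163 to 225 TPM in the other 24 libraries. Niben101Scf00254g08009 had a mean of 20.04 TPM and an SD of 0.10, with 21.9 and 19.4 TPM after XEG1 and 19.0 and 18.3 TPM after mock in wild type, and 17.2 to 22.03 TPM elsewhere. In the more abundant gene the wild-type groups overlapped. In the other, both XEG1 libraries lay above both mock libraries, and all 4 lay within the range of the remaining libraries.

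The deposited TPM of the same genes were not level. Niben101Scf10162g02016 had 26.9 and 29.5 deposited TPM after XEG1 and 34.8 and 41.4 TPM after mock in wild type, and 33.0 to 45.4 TPM, with a median of 39.7 TPM, in the other genotypes. Niben101Scf02156g02008 had 80.0 and 79.5 deposited TPM after XEG1 and 107 and 122 TPM after mock in wild type, and 106 to 155 TPM elsewhere. For both genes the XEG1 libraries of wild type were the lowest of the 28.

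All 100 genes were lower after XEG1 than after mock in wild type on deposited TPM, by a median log2 difference of -0.48 and a range of -0.81 to -0.15. On scaled TPM 61 were higher and 39 lower, with a median of 0.03 and a range of -0.30 to 0.36. Together the 100 genes held 0.326% ± 0.0072 of all TPM in wild type after XEG1 and 0.451% ± 0.053 after mock (SD, n = 2 each), and 0.409% to 0.531% over the 26 libraries other than wild-type XEG1. Their geometric mean was 27.6 ± 0.61 deposited TPM after XEG1 and 38.7 ± 4.4 TPM after mock in wild type, and 40.3 ± 0.86 against 39.5 ± 0.66 TPM once scaled. The choice took genes that follow the scaling factor, so their share moving with it is no result of its own.

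Smaller shifts of the same kind separated replicates in some groups. In the rxeg1 knockout the geometric mean of the 100 genes was 36.3 and 45.5 deposited TPM in the XEG1 libraries and 35.1 and 44.9 TPM in the mock libraries, replicate 1 first in each. The pRXEG1:RXEG1synΔ90-95/Δ786-792ΔCT-1 line had 38.7 and 45.4 TPM after XEG1 and 35.7 and 45.0 TPM after mock in the same order. The replicates of these groups differed more than their treatments did. The direction was not shared by all groups. After mock, replicate 1 was the higher in pRXEG1:RXEG1synΔCT-1 (44.6 and 39.6 TPM), pRXEG1:RXEG1synΔCT-2 (44.1 and 41.1 TPM) and sobir1/sobir1-like (38.4 and 37.8 TPM). After scaling, the geometric mean lay between 37.9 and 40.9 TPM in all 28 libraries, with the second mock library of sobir1/sobir1-like the lowest and the first XEG1 library of wild type the highest.

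**Figure D3:**
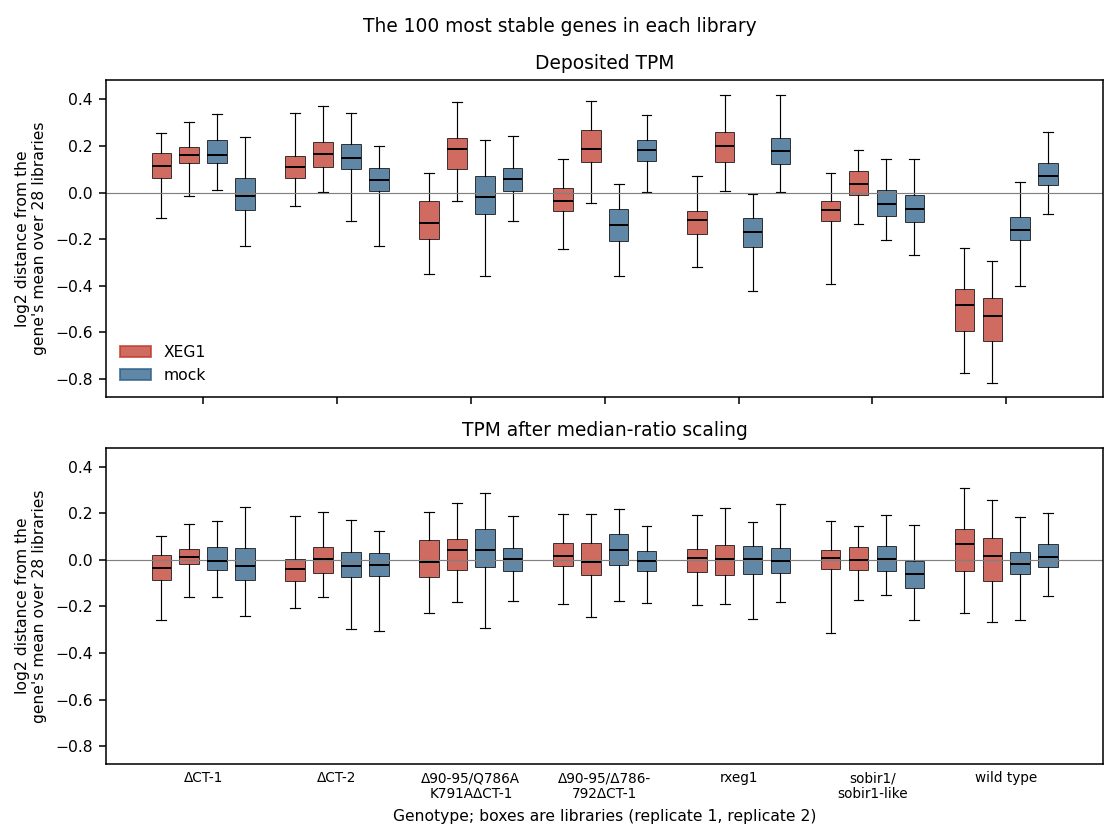
Each box holds the 100 genes in 1 library, as log2 distance from the gene's own mean over 28 libraries (line, median; box, quartiles; whiskers, lowest and highest gene), with XEG1 in red and mock in blue. On deposited TPM the boxes follow the scaling factors, with medians from -0.53 to 0.20, and on scaled TPM the medians stay between -0.06 and 0.07.

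The response to XEG1 was compared gene by gene with limma's moderated test on log2(scaled TPM + 1), fitted on the 36777 genes whose mean reached 1 TPM, all 100 stable genes included, with Benjamini-Hochberg adjusted p under 0.05 as the call. In wild type 2 of the 100 genes were called (6 at an unadjusted p under 0.05), where 39.1% of all tested genes and 38.4% of the level window were called. At an unadjusted p under 0.05 were 17008 of all tested genes. The choice used these libraries, so nothing is read from either difference. On deposited TPM, where the median log2 change of all tested genes was -0.39, 63 of the 100 were called, all lower, beside 48.4% of all tested genes called and 36.4% called lower. On scaled TPM the median of all tested genes was 0.03.

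The 2 called genes had changes in opposite directions. Niben101Scf03861g02018 had 101.5 and 94.0 scaled TPM after XEG1 and 77.8 and 74.9 TPM after mock in wild type, a log2 change of 0.35 (standard error, SE, 0.12), and 75.8 to 89.7 TPM in the other 24 libraries. On deposited TPM the direction turned, at 69.7 and 64.5 TPM after XEG1 and 70.8 and 78.4 TPM after mock (log2 change -0.15, SE 0.13). Niben101Scf05201g07006 had 19.3 and 18.6 scaled TPM after XEG1 and 22.6 and 24.1 TPM after mock in wild type (log2 change -0.29, SE 0.10), and 19.2 to 23.3 TPM elsewhere. On deposited TPM it had 13.3 and 12.8 TPM after XEG1 and 20.6 and 25.2 TPM after mock (log2 change -0.76, SE 0.17). These genes had the largest change each way in wild type among the 100. Neither was called when a mock library or the first XEG1 library of wild type was left out, nor when only the compared groups were fitted.

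In the 6 other genotypes limma called 0 of the 100 genes for XEG1, with 0 at an unadjusted p under 0.05 in each. Of all 36777 tested genes, 284 to 1372 were at that unadjusted p in these genotypes. The share of all tested genes called there was 0.019% in pRXEG1:RXEG1synΔCT-2, 0.00544% in pRXEG1:RXEG1synΔ90-95/Q786AK791AΔCT-1 and 0% in the other 4. The median log2 change of scaled TPM over the 100 genes was 0.00 in pRXEG1:RXEG1synΔCT-1, 0.01 in pRXEG1:RXEG1synΔCT-2, -0.01 in pRXEG1:RXEG1synΔ90-95/Q786AK791AΔCT-1 and -0.01 in pRXEG1:RXEG1synΔ90-95/Δ786-792ΔCT-1. It was 0.01 in rxeg1 and 0.03 in sobir1/sobir1-like. Single genes ranged from -0.19 to 0.23 over these 6 genotypes, and 2 gene changes exceeded 0.2 in size, 1 in pRXEG1:RXEG1synΔCT-2 and 1 in sobir1/sobir1-like. In wild type 11 of the 100 exceeded 0.2, beside 69.5% of the level window. The choice used these libraries too, so nothing is read from this difference.

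Mock-treated seedlings of the mutants and wild type were also close in these genes. The choice took genes of low spread over these same libraries, so nothing is read from this closeness or from the calls. Limma called 0 of the 100 in each of the 6 genotypes against wild type, beside 14% of all tested genes for pRXEG1:RXEG1synΔCT-1, 3.17% for pRXEG1:RXEG1synΔCT-2, 10.1% for pRXEG1:RXEG1synΔ90-95/Q786AK791AΔCT-1, 0.0707% for pRXEG1:RXEG1synΔ90-95/Δ786-792ΔCT-1, 0.0245% for rxeg1 and 0.0571% for sobir1/sobir1-like. At an unadjusted p under 0.05 there was 1 in pRXEG1:RXEG1synΔCT-1, 3 in pRXEG1:RXEG1synΔCT-2, 2 in pRXEG1:RXEG1synΔ90-95/Q786AK791AΔCT-1 and 0 in the other 3. Of all 36777 tested genes, 12089, 9708 and 9957 were at that p in these lines in the same order, and 1542 to 2378 in the other 3. The median log2 difference from wild type lay between -0.04 and 0.03.

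What variation remained was spread over the groups and was largest in wild type after XEG1. The pooled SD between replicates of a group had a median of 0.086 over the 100 genes, and the SD of the 14 group means a median of 0.066. In the level window these medians were 0.22 and 0.24. The first SD is that of single libraries and the second that of averages of replicates, which still carry part of the replicate spread. Their sizes therefore cannot be compared directly. The choice also took genes of low spread over these same libraries, so nothing is read from the difference between the stable genes and the level window. For 34 of the 100 genes the group farthest from the overall mean was wild type after XEG1, followed by mock-treated pRXEG1:RXEG1synΔ90-95/Q786AK791AΔCT-1 with 11 and mock-treated pRXEG1:RXEG1synΔCT-2 with 10. The first XEG1 library of wild type was the highest of all libraries for 19 genes and the lowest for 0, and the second was the highest for 9 and the lowest for 12. These counts come from the libraries used in the choice, so nothing is read from them. In the level window too, XEG1 changes over 0.5 were most frequent in wild type, at 41.4% against 0.907% to 5.34% elsewhere.

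Few pairs of the stable genes varied alike once scaled. Over the 4950 pairs of the 100 genes, Pearson's r across the 28 libraries had a median of 0.062 on scaled TPM, with quartiles of -0.13 and 0.25, and 16 pairs reached 0.7. On deposited TPM the median r was 0.84 and 4914 pairs reached 0.7. These points share libraries and their scaling factors, which the values on deposited TPM carry in full. The choice took genes of low scaled spread over these same libraries, so nothing is read from the low r on scaled TPM. The first principal component of the scaled values held 17.1% of their variance and the second 13.9%.

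To measure steady transcripts in libraries that had no part in choosing them, the same rule was applied to the 24 libraries other than wild type and the 100 genes found were followed in wild type. Of these, 46 were also among the 100 chosen on all libraries. In wild type limma called 43 of the 100 after XEG1, 31 higher and 12 lower (50 at an unadjusted p under 0.05), beside 39.1% of all tested genes called, 21.9% higher and 17.1% lower. At an unadjusted p under 0.05 were 17008 of the 36777 tested genes. The share called was close to the background. The errors of the fit come from all 28 libraries, including the 24 that chose these genes for low spread. Nothing is therefore read from this closeness, and p-values of genes chosen this way carry the same limit. The direction depended on the scaling. On deposited TPM 48 were called, 6 higher and 42 lower, beside 48.4% of all tested genes called and 36.4% called lower. With the libraries scaled by these genes themselves, an alternative added after the data were seen, 37 were called, 16 higher and 21 lower. The same fit called 40.3% of all tested genes. That scaling centres the mean change of these genes by construction, so this split is no result of its own. Leaving out the second XEG1 library of wild type gave 27 calls, beside 27.7% of all tested genes in the same fit. Fitting only the compared groups gave 15, beside 35.8%.

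Large called changes were fewer among them than in the level window. Among the 43 called genes the log2 change had a median size of 0.44 and ranged from 0.29 to 1.67 in size. A called change of at least 0.5 was found in 14 of the 100 genes against 34.7% of the level window, and one of at least 1 in 4 of the 100 against 21.0% of the level window. That window is of all 28 libraries and can also admit genes through their wild-type levels. By size of change alone, called or not, 15 of the 100 exceeded 0.5, beside 39.8% of the level window of the 24 libraries. The standard error was also smaller, with a median of 0.11 for the 100 genes and 0.21 for the level window, as the choice took genes of low spread. Over the 100 genes the change in wild type had an SD of 0.42 and a median of 0.13, while in the 6 genotypes that chose them the SD lay between 0.059 and 0.069.

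Niben101Scf07182g01009 had the largest rise of this set. It had 62.8 and 64.3 scaled TPM after XEG1 and 19.97 and 18.6 TPM after mock in wild type, and 19.1 to 23.6 TPM, with a median of 20.5 TPM, in the 24 libraries of the other genotypes. The log2 change was 1.67 with an SE of 0.10 (limma, adjusted p = 2.61e-10), and 1.17 with an SE of 0.16 on deposited TPM (limma, adjusted p = 1.2e-05). Both wild-type XEG1 libraries lay above every other library.

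Niben101Scf02159g01008 had the largest fall. It had 18.2 and 15.5 scaled TPM after XEG1 and 29.3 and 29.9 TPM after mock in wild type, and 26.9 to 32.7 TPM elsewhere, a log2 change of -0.78 with an SE of 0.12 (limma, adjusted p = 2.85e-05). On deposited TPM the log2 change was -1.25 with an SE of 0.17 (limma, adjusted p = 9.81e-06). Both wild-type XEG1 libraries lay below every other library. Neither gene is among the 100 chosen on all libraries.

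**Figure D4:**
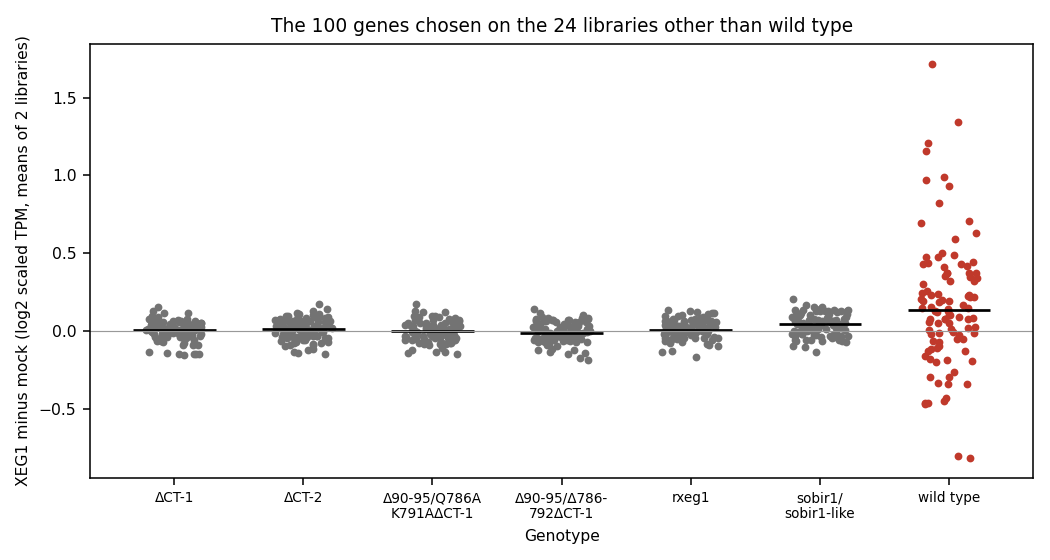
The log2 change of scaled TPM, XEG1 minus mock, of the 100 genes chosen on the 24 libraries other than wild type, 1 point per gene and genotype, with the median as a line. In the 6 genotypes used for the choice the points stay between -0.19 and 0.21, and in wild type they run from -0.82 to 1.72.

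The other genotypes were left out of the choice in the same way. Genes chosen without a genotype had XEG1 changes in it of -0.18 to 0.15 for pRXEG1:RXEG1synΔCT-1, -0.19 to 0.33 for pRXEG1:RXEG1synΔCT-2, -0.14 to 0.22 for pRXEG1:RXEG1synΔ90-95/Q786AK791AΔCT-1 and -0.22 to 0.28 for pRXEG1:RXEG1synΔ90-95/Δ786-792ΔCT-1. For rxeg1 the range was -0.30 to 0.14 and for sobir1/sobir1-like -0.14 to 0.24. None of these sets held a change of 0.5 or more, beside 0.907% to 5.34% of the level window of all 28 libraries. Limma called 0 of the 100 genes in each of these, with 0 or 1 at an unadjusted p under 0.05. Of all 36777 tested genes, 284 to 1372 were at that unadjusted p in these genotypes. The share of all tested genes called was also only 0% to 0.019%, so nothing is read from the 0 calls.

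Differences between mock-treated lines and wild type were followed in genes chosen on the 20 libraries of neither genotype. In pRXEG1:RXEG1synΔCT-1 limma called 3 of 100 genes, 0 higher and 3 lower, beside 14% of all tested genes called, 5.54% higher and 8.44% lower. No call was made on deposited TPM, with only the compared groups, without either mock library of wild type or without the second mock library of the line, and other single libraries left out gave 1 to 4 calls. In pRXEG1:RXEG1synΔCT-2 it called 0 (11 at an unadjusted p under 0.05) beside 3.17%, and 2 with a term for the replicate number, as also without either mock library of pRXEG1:RXEG1synΔ90-95/Δ786-792ΔCT-1. In pRXEG1:RXEG1synΔ90-95/Q786AK791AΔCT-1 it called 0 (6 at an unadjusted p under 0.05) beside 10.1%. Of all 36777 tested genes, 9708 were at that unadjusted p in pRXEG1:RXEG1synΔCT-2 and 9957 in pRXEG1:RXEG1synΔ90-95/Q786AK791AΔCT-1. The difference from wild type in these genes ran from -0.49 to 0.27 in pRXEG1:RXEG1synΔCT-1, from -0.43 to 0.33 in pRXEG1:RXEG1synΔCT-2 and from -0.27 to 0.30 in pRXEG1:RXEG1synΔ90-95/Q786AK791AΔCT-1. None of the 3 sets held a difference of 0.5 or more, beside 39.3%, 34.0% and 32.3% of the level window of all 28 libraries in the same order.

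Spread was also followed between replicates, treatments and genotypes. The 100 genes chosen on the replicate 1 libraries had a median SD of 0.084 there and 0.11 in the replicate 2 libraries, where the median was 0.28 over the 9493 genes that met the level rule in those libraries alone, and 79 of the 100 were in the lowest 10% of them. Of the 100 chosen on replicate 2, 93 met the level rule in replicate 1, with a median SD of 0.11, and 77 were in the lowest 10%. Genes chosen on the 14 mock libraries had an SD of up to 1.14 in the XEG1 libraries, with 63 of 98 in the lowest 10%. Genes chosen on the 14 XEG1 libraries reached 0.21 at most in the mock libraries, with 84 of 99 in the lowest 10%.

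Which 100 genes were called stable depended on the scaling. On deposited TPM without scaling, 0 of the 100 genes were kept. The 100 genes chosen there instead changed by -0.38 to 0.29 after XEG1 in wild type on deposited TPM, with a median of -0.11. Once scaled, all were higher, by a median log2 change of 0.40. The scaling adds the same amount to the wild-type change of every gene, so this direction follows from it. With the scaling factor taken over the level window alone, 10 of the 100 were kept. These 2 factors differed by -0.14 to 0.18 on the log2 scale over the libraries, which at its extremes exceeds the SD of the 100 genes. The mock libraries alone kept 36, the choice without wild type 46, and leaving out any other genotype 69 to 88. Leaving out 1 library kept 75 to 98, with the lowest number without the second XEG1 library of wild type.

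**Figure D5:**
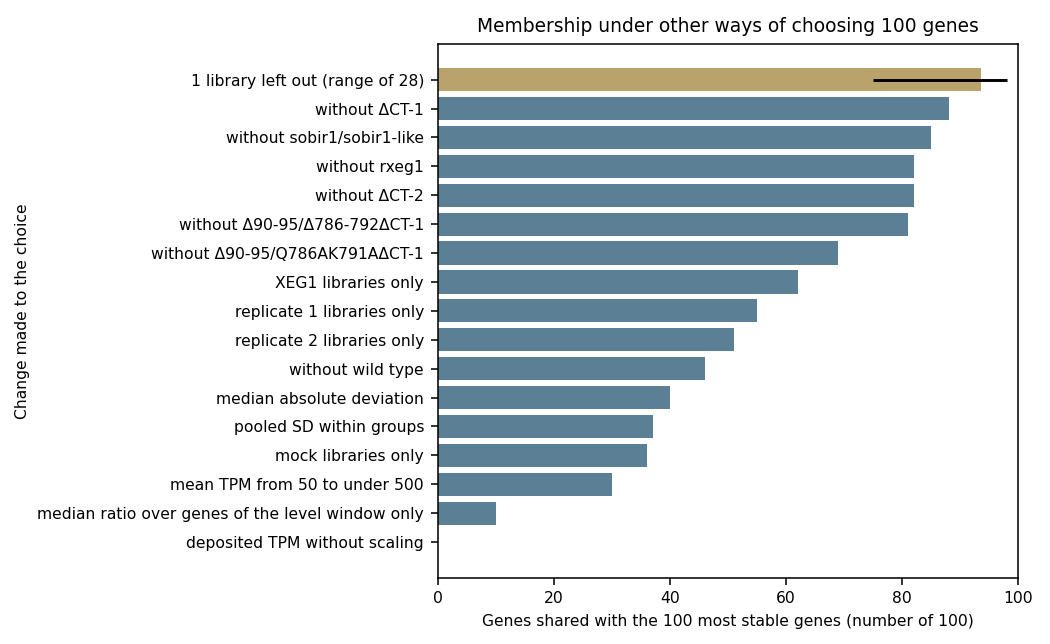
Number of the 100 most stable genes that were chosen again when the choice was changed (bars from 0, x axis up to 100). The top bar is the median over 28 choices with 1 library left out, and its black line runs from the lowest, 75, to the highest, 98. Choosing on deposited TPM kept 0.

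As internal references, the genes gave different scaling of wild-type seedlings depending on how they were chosen. The log2 scaling factor of wild type, XEG1 minus mock, was -0.51 by the median ratio, -0.48 by the geometric mean of the 100 genes chosen on all libraries, and -0.34 by that of the 100 genes chosen without wild type. The first of these sets was ranked after the median-ratio scaling, so its factor is not independent of it. With the factor of the genes chosen without wild type, limma called 14818 of the tested genes after XEG1 in wild type, 43.8% of them higher. The median ratio gave 14370 calls, 56.1% of them higher, and deposited TPM 17782, 24.6% of them higher. The split of the wild-type calls into higher and lower genes thus moved with the scaling. The scaling by genes chosen without wild type was added after the data were seen.

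The identifiers carry the scaffold of each gene in the Niben101 assembly. The 100 genes lay on 98 scaffolds, and 1 of them on a contig named Ctg. Niben101Scf03278 and Niben101Scf05201 held a pair each, at gene numbers 3004 and 7014 of the first and 6019 and 7006 of the second. The 9258 genes of the level window lay on 4667 scaffolds, of which 2232 held several. Nicotiana benthamiana is an allotetraploid, so reads can be shared between duplicated genes, and the labels do not say how such reads were counted.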

How the data were processed

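Total RNA of 28 seedling libraries was sequenced. Per the labels' protocols, libraries were made with the MGIEasy kit, and HISAT2 2.0.4 is listed as a tool in the submitters' processing notes. The values are TPM as deposited by the authors, in a file for each library, and sum to 1000000. The sources used here give no counter, build or annotation. A combined table was not used here. TPM keeps no depth, so no depth limits are given. The members and lists were chosen with earlier results of these data known.

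Libraries were scaled by median ratio. No pseudocount was used for the SD, and 1 was added before the fits. A fold on the log2(TPM + 1) scale understates the change of genes of low level. Limma 3.58.1 (R 4.3.3, trend and robust shrinkage) was fitted to 14 group means with 14 residual degrees of freedom, with no term for the replicate number. The rule and fit were tested on simulated data. Named genes were the 4 of lowest SD, the extremes of level and of wild-type change, those at the threshold, and the largest called changes each way among genes chosen without wild type. The alternatives tried were other scalings, level windows, spread measures and library subsets for the choice, and for the fits a pseudocount of 0.1, no filter, only the compared groups, a replicate term and each library left out. A planned list of reference genes could not be matched without names. Figures were drawn with matplotlib 3.10.9.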

Additional observations from a re-analysis of the deposited data

Results flagged for a closer look

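The response to XEG1 differed between wild type and the mean of the 6 other genotypes in both genes named from the set chosen without wild type (a contrast of limma's fit on log2(scaled TPM + 1), not among the planned comparisons). For Niben101Scf07182g01009 the response of wild type exceeded that mean by 1.72 (SE 0.11, limma, adjusted p = 7.57e-10). For Niben101Scf02159g01008 the difference was -0.78 (SE 0.13, limma, adjusted p = 8.11e-05). The genes were picked for low spread in the 6 genotypes and for the largest called changes in wild type, so these differences describe a selected pair.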

How the results depend on the processing

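Of the 100 stable genes, deposited TPM without scaling kept 0, scaling over the level window 10, a window from 50 to under 500 TPM 30, the mock libraries 36, the pooled SD within groups 37, the median absolute deviation 40, the choice without wild type 46, replicate 2 alone 51, replicate 1 alone 55 and the XEG1 libraries 62. Leaving out 1 library kept 75 to 98. Wild-type XEG1 calls among the 100 were 2, with 63 on deposited TPM, 0 with only the compared groups and 0 to 2 with 1 library left out. In the same order, 39.1%, 48.4%, 35.8% and 27.7% to 40.3% of all tested genes were called. Among the genes chosen without wild type the 43 calls became 15 with only the compared groups and 27 to 44 with 1 library left out, beside these same shares. Genes chosen on deposited TPM without wild type gave 21 calls, beside 39.1% of all tested genes. Scaling by the genes chosen without wild type, chosen after seeing the data, gave 37 (16 higher, 21 lower), beside 40.3%. The 3 mock calls in pRXEG1:RXEG1synΔCT-1 became 0 on deposited TPM and 0 with only the compared groups, and 0 to 4 with 1 library left out. The main fit called 14% of all tested genes there. In pRXEG1:RXEG1synΔCT-2 leaving out 1 library gave 0 to 2 calls, where the main fit called 0, beside 3.17% of all tested genes. The causes were not tested. The scaling by genes chosen without wild type centres their own mean change. The split of their 37 calls is therefore no result of its own. A pseudocount of 0.1 and no filter left the counts of the choices made on all or on other genotypes at 2, 43, 3, 0 and 0. The labels do not say that a replicate number marks a shared batch, and replicate differences of pairs of groups correlated from -0.18 to 0.74 across genes (median 0.12), so the samples were not treated as paired. With the replicate block 4 genes were called in pRXEG1:RXEG1synΔCT-1 against 3 without it, and 2 genes in pRXEG1:RXEG1synΔCT-2 against 0 without it. Among the genes chosen without wild type, 44 were called in wild type after XEG1 against 43 without it. Of all tested genes, the block called 43.6% in wild type after XEG1 against 39.1% without it. TPM keeps no depth, so counting error of the low genes could not be given.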
